A study of Mus musculus with 12 samples.

Results

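Members of the amino acid transporter group were 8 genes of the plasma membrane, namely Slc7a5, Slc3a2, Slc1a5, Slc7a1, Slc7a6, Slc7a11, Slc38a1 and Slc38a2, chosen by name from the 36222 genes in the expression table. Each symbol belonged to 1 gene identifier, so all 8 members were found. They were followed in 12 RNA-seq libraries of mouse regulatory T cells (Treg), the CD4+ T cells that restrain immune responses under the transcription factor Foxp3. Treg were sorted from CD4+ cells of single mice, labelled as spleen, by the yellow fluorescent protein (YFP) of a Foxp3-driven YFP-Cre, which all animals carried. In the wild-type (WT) groups Ikzf1 was intact, and in the conditional knockout (cKO) groups this gene, which encodes the zinc-finger factor Ikaros, was floxed and so deleted in cells that express the Cre. The animals were aged 6 to 8 weeks per the study's description of the ex vivo comparison. RNA was taken either directly (ex vivo) or after 4 h on plate-bound antibodies to CD3 and CD28 at 1 µg/ml each (stimulated). The 2 genotypes and 2 conditions made 4 groups with 3 libraries each. No group was cultured for 4 h without the antibodies. Effects of the antibodies cannot be told apart from those of culture and time, and stimulation here names them together.

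Amino acid transporters set how fast a T cell can take up the building blocks of protein, and their supply is sensed by the kinase mTORC1. Slc7a5 (LAT1) is a light chain that exchanges large neutral amino acids such as leucine, and it reaches the cell surface bound to the heavy chain Slc3a2 (CD98). Slc7a6 (y+LAT2) and Slc7a11 (xCT, the cystine and glutamate exchanger) are other light chains of the same heavy chain. Slc1a5 (ASCT2) exchanges glutamine and other small neutral amino acids, Slc7a1 (CAT1) carries arginine and lysine without a heavy chain, and Slc38a1 (SNAT1) and Slc38a2 (SNAT2) bring in glutamine and other neutral amino acids with sodium. Uptake of leucine and glutamine rises in T cells after their receptor is engaged, and Slc38a2 and several of the others belong to the genes that the factor ATF4 induces when amino acids are short.

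Values are transcript abundances (TPM), which are per length of the gene and so comparable between genes, scaled between libraries by the trimmed mean of M-values and called scaled TPM. Libraries held 8208659 to 20247649 reads on genes, and the 2 shallowest libraries were stimulated cKO. One feature, Gm10800, took 17.7 to 39.8% of the TPM in the ex vivo libraries and 32.6 to 55.9% in the stimulated ones, most in cKO stimulated replicate 3. Ikzf1 checked the labels of genotype, at 110 ± 5.55 scaled TPM (SD, n = 3) in WT and 37.9 ± 4.57 in cKO ex vivo, and at 68.9 ± 2.24 and 27.8 ± 3.91 after stimulation. Of 5 control genes of stimulation, Egr2 rose by 1.48 and 1.31 and Myc by 0.61 and 0.64 on the log2 scale in WT and cKO, whereas Cd69, an early activation marker, fell by 1.36 and 1.71. Nr4a1 fell by 0.55 in WT and did not pass in cKO (adjusted p = 0.464 in limma), and Il2ra rose by 0.65 in cKO and did not pass in WT (adjusted p = 0.477). Foxp3 was present in every library at 82.7 TPM or more, Cd3e at 214 TPM or more, and the 8 Treg and CD4 T cell markers summed to 1217 to 3734 TPM. The 5 B cell markers summed to 11.6 to 14.9 TPM in WT and 18.6 to 25.8 TPM in cKO ex vivo, without overlap, and to 11.7 to 16.9 and 15.6 to 20.7 TPM after stimulation. WT ex vivo replicate 3 differed from all others in sex, with Xist at 179 TPM and Ddx3y at 0.097 TPM, so that it did not come from the same mouse as WT stimulated replicate 3. In bulk RNA, fewer cells of a type and less RNA per cell cannot be told apart.

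In WT ex vivo Treg the sodium-coupled carrier Slc38a2 and the heavy chain Slc3a2 led the group, at 185 ± 17.7 and 149 ± 9.18 scaled TPM, and these levels ranked above 97.8% and 97.2% of the 13318 tested genes. Slc1a5 followed at 56.2 ± 3.44, Slc7a5 at 43.8 ± 5.91, Slc38a1 at 32.5 ± 3.37, Slc7a1 at 28.8 ± 5.12 and Slc7a6 at 19.3 ± 1.21 scaled TPM. In this order Slc38a1 and Slc7a1 overlapped between libraries and all other neighbours were apart. Slc7a11 closed the list at 1.26 ± 0.326 scaled TPM. The order changed after stimulation, where Slc1a5, Slc3a2 and Slc7a1 in WT lay next to each other at 53.1, 50.5 and 47.0 scaled TPM with overlapping libraries, below Slc38a2 at 75.6. In stimulated cKO Treg, Slc3a2 at 64.9 ± 12 and Slc38a2 at 59.6 ± 5.46 overlapped, as did Slc1a5 with Slc7a1 and Slc38a1 with Slc7a5.

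**Figure D1:**
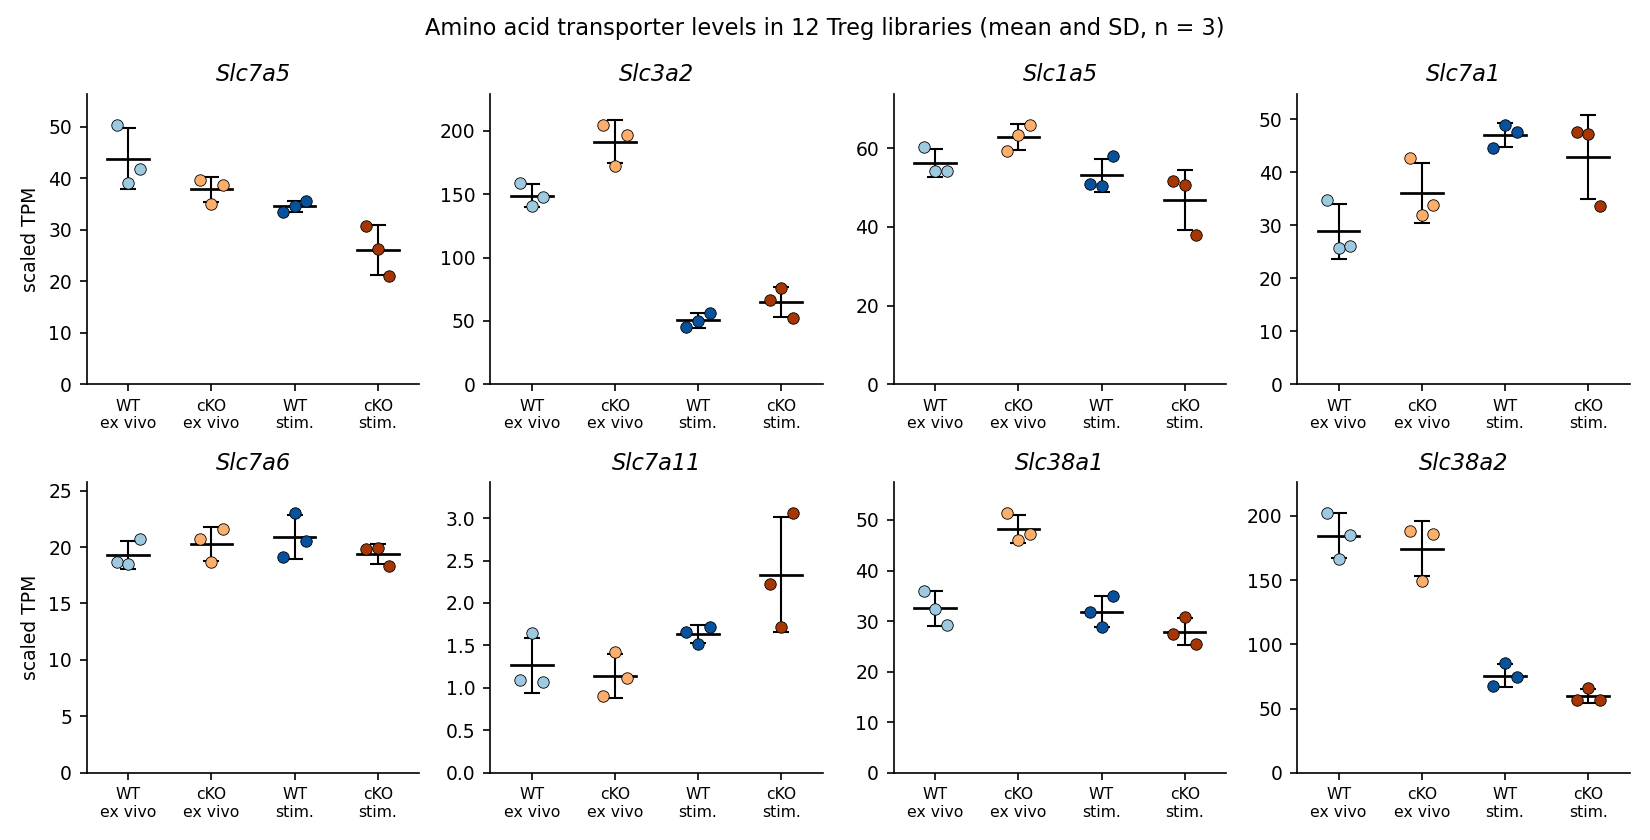
Level of each amino acid transporter in scaled TPM (vertical axis, linear and from 0) in the 3 libraries of each of the 4 groups (points), with the group mean and SD as bars. Slc3a2 and Slc38a2 lay at 141 scaled TPM or more in all 6 ex vivo libraries and at 85.3 or less in all 6 stimulated ones, and Slc38a1 was highest in the cKO ex vivo libraries.

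The heavy chain Slc3a2 (ENSMUSG00000010095, mm9 chr19:8781372-8797859, minus strand) was measured at 159, 141 and 148 scaled TPM in WT ex vivo and at 45.0, 50.1 and 56.4 in WT stimulated. In cKO it stood at 205, 172 and 197 ex vivo and at 66.5, 76.1 and 52.2 after stimulation. Ex vivo and stimulated libraries were far apart in both genotypes. Slc3a2 fell 2.92-fold with stimulation in WT (log2 change -1.55 ± 0.14 SE, adjusted p = 1.83e-05 in limma) and 2.94-fold in cKO (-1.56 ± 0.14, adjusted p = 1.22e-05). The test of the difference between these falls gave a log2 difference of -0.01 with a 95% interval of -0.44 to 0.42. Between genotypes, every cKO library lay above every WT library ex vivo, with a log2 difference of 0.36 (95% interval 0.05 to 0.66) that did not pass (adjusted p = 0.194), and it was 0.38 and passed with quantile normalization (adjusted p = 0.0246) and was 0.59 with unscaled TPM (adjusted p = 0.306). After stimulation the groups overlapped through cKO stimulated replicate 3, with a log2 difference of 0.35 (adjusted p = 0.16). Without that library the difference was 0.52 (adjusted p = 0.0348), without cKO stimulated replicate 2 it was 0.20 (adjusted p = 0.359), and it was 0.56 with quantile normalization (adjusted p = 0.00153) and 0.059 with unscaled TPM (adjusted p = 0.882).

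Slc7a5 (ENSMUSG00000040010, mm9 chr8:124405052-124431594, minus strand), the leucine exchanger, moved less than its heavy chain. It read 50.5, 39.1 and 41.8 scaled TPM in WT ex vivo and 33.5, 34.7 and 35.6 in WT stimulated, against 39.8, 35.1 and 38.8 in cKO ex vivo and 30.8, 26.3 and 21.1 in cKO stimulated. All stimulated libraries of a genotype lay under all of its ex vivo libraries. The stimulation effect passed in cKO (log2 change -0.54 ± 0.13, adjusted p = 0.00789), at -0.36 without cKO stimulated replicate 3 (adjusted p = 0.0447) and no longer with quantile normalization (-0.20, adjusted p = 0.181). It did not pass in WT (-0.32 ± 0.13, adjusted p = 0.084), though it did when cKO stimulated replicate 3 was left out of the pooled fit (adjusted p = 0.0432) and with limma voom on reads (adjusted p = 0.0361), and the test of their difference gave -0.21 (95% interval -0.62 to 0.20). Stimulated cKO libraries were all below stimulated WT libraries, with a log2 difference of -0.41 (95% interval -0.70 to -0.12, adjusted p = 0.0887), and limma voom on the recovered reads gave an adjusted p of 0.0298 for it. Without cKO stimulated replicate 3 it was -0.25 (adjusted p = 0.333). The gene overlaps Gm20388 on the other strand, and counting used the strand.

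Slc7a6 (ENSMUSG00000031904, mm9 chr8:108692775-108722604, plus strand), which exchanges basic for neutral amino acids, had the narrowest range of the 7 tested members relative to its level. Its 12 libraries lay between 18.3 and 23.0 scaled TPM, its group means between 19.3 and 20.9, and its log2 changes in the 4 comparisons of 2 groups between -0.10 and 0.11. The widest 95% limits of these 4 changes were -0.30 and 0.30. The change with stimulation in WT was 0.26 and passed with quantile normalization (adjusted p = 0.0168), and that in cKO ranged from -0.58 to 0.18 over the alternatives. Slc7a11 (ENSMUSG00000027737, mm9 chr3:50168858-50247535, minus strand) was at 0.946 to 2.35 TPM in every library, from 126 to 199 reads. This was above the median of 1555 olfactory and vomeronasal receptor genes, which Treg are not known to use and which had a median of 0.566 to 1.17 TPM. Between 72.6 and 92.7% of these receptor genes lay below Slc7a11 in the same library. Since Slc7a11 stayed under 5 TPM in all groups it was not tested, and 7 of the 8 members were.

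Slc38a2 (ENSMUSG00000022462, mm9 chr15:96517825-96530129, minus strand) fell with stimulation like Slc3a2. It was measured at 202, 167 and 185 scaled TPM in WT ex vivo and 67.2, 85.3 and 74.2 in WT stimulated. The cKO values were 188, 150 and 186 ex vivo and 56.6, 65.9 and 56.3 after stimulation. No ex vivo library came near a stimulated one. The fall was 2.43-fold in WT (log2 change -1.28 ± 0.13, adjusted p = 3.39e-05) and 2.89-fold in cKO (-1.53 ± 0.13, adjusted p = 7.96e-06), and the difference between them was -0.25 (95% interval -0.64 to 0.14). Genotypes overlapped ex vivo (log2 difference -0.08, 95% interval -0.36 to 0.19). After stimulation all cKO libraries were under all WT libraries, at a log2 difference of -0.33 (95% interval -0.61 to -0.06) that did not pass (adjusted p = 0.139).

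Slc38a1 (ENSMUSG00000023169, mm9 chr15:96401849-96473344, minus strand), the close relative of Slc38a2 on the same chromosome, followed another pattern. WT libraries read 35.9, 32.5 and 29.1 scaled TPM ex vivo and 31.8, 28.8 and 35.0 after stimulation. The cKO libraries read 51.3, 46.0 and 47.3 ex vivo and 27.4, 30.8 and 25.6 after stimulation. The cKO ex vivo libraries thus stood above all 9 others, which overlapped. Slc38a1 was 1.47-fold higher in cKO than in WT ex vivo (log2 difference 0.56 ± 0.10, adjusted p = 0.012). The B cell markers were also higher in cKO ex vivo, as given above, and their part in this difference was not tested. Slc38a1 fell 1.70-fold with stimulation in cKO (-0.77 ± 0.10, adjusted p = 0.000232). In WT the change with stimulation was -0.03 (95% interval -0.26 to 0.20), and the interaction of genotype and stimulation was -0.74 ± 0.15 (adjusted p = 0.0447). Without the female library, WT ex vivo replicate 3, the genotype difference ex vivo was 0.48 at an adjusted p of 0.0517, and without cKO ex vivo replicate 1 it was 0.51 at 0.0569. It also lost its call with unscaled TPM (0.79), a filter of 1 TPM (0.54) and no filter (0.56). The interaction lost its call in 15 of 21 alternatives, among them the removal of any library other than WT ex vivo replicate 1 or cKO stimulated replicate 2 (adjusted p of 0.0573 to 0.125), and the fall in cKO kept it in all 22.

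Slc1a5 (ENSMUSG00000001918, mm9 chr7:17366695-17383623, plus strand), the glutamine exchanger, stayed between 50.4 and 66.0 scaled TPM in 11 of 12 libraries, and cKO stimulated replicate 3 had 37.9. In WT it changed by -0.08 with stimulation (95% interval -0.34 to 0.18). In cKO it went from 59.3, 63.3 and 66.0 to 51.7, 50.7 and 37.9, a log2 change of -0.43 ± 0.12 (adjusted p = 0.0132), which was -0.25 without cKO stimulated replicate 3 (adjusted p = 0.0641) and 0.045 with quantile normalization (adjusted p = 0.731). Slc7a1 (ENSMUSG00000041313, mm9 chr5:149138986-149211480, minus strand), the arginine carrier, was the member that rose in WT. Its WT libraries went from 34.7, 25.6 and 26.1 to 44.5, 49.0 and 47.5 scaled TPM, a 1.62-fold rise (log2 change 0.70 ± 0.16, adjusted p = 0.00712). It was 0.45 with a filter of 1 TPM (adjusted p = 0.449) and 0.47 without a filter (adjusted p = 0.428), where it was not called. In cKO it was 42.6, 31.9 and 33.7 ex vivo and 47.6, 47.1 and 33.6 after stimulation, so that the groups overlapped (log2 change 0.23, adjusted p = 0.257), and the change was 0.44 without cKO stimulated replicate 3 (adjusted p = 0.0464) and 0.65 with quantile normalization (adjusted p = 0.00108), but -0.30 with a filter of 1 TPM. The test of the difference between the WT and cKO changes of Slc7a1 gave -0.47 (95% interval -0.97 to 0.04, adjusted p = 0.378).

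Counted by comparison, stimulation in WT raised 1 of the 7 tested members and lowered 2, beside calls for 32.0% of all tested genes (12.7% higher, 19.3% lower). This split of all genes in WT, 1688 higher and 2574 lower, depended on the processing, with 1175 and 768 for unscaled TPM, 2062 and 1921 for quantile normalization and 304 and 1535 for a filter of 1 TPM. In cKO it raised none and lowered 5 of 7 (Slc3a2, Slc38a2, Slc38a1, Slc7a5 and Slc1a5), where calls covered 43.8% of all tested genes, 17.3% higher and 26.5% lower. With quantile normalization 1 member was called higher and 3 lower in cKO, and without cKO stimulated replicate 3 1 higher and 4 lower. The median log2 change of the 7 members was -0.08 in WT and -0.54 in cKO, beside 0.00 and -0.01 over all tested genes. With quantile normalization it was 0.19 and -0.20, beside 0.03 and 0.00 over all tested genes. With unscaled TPM it was 0.11 and -0.86, beside 0.18 and -0.31 over all tested genes. With a filter of 1 TPM it was -0.34 and -1.07, beside 0.005 and 0.03 over the 33873 genes then tested. The sign of the member median in WT thus depended on the scaling, and with unscaled TPM it lay below that of all tested genes. The comparison of genotypes ex vivo called 1 of 7, Slc38a1, against 5.29% of all tested genes (3.62% higher), and the interaction called the same member against 1.10% (0.653% lower). After stimulation no member was called between genotypes by limma on TPM, where calls covered 6.92% of all tested genes, 3.30% as higher and 3.62% as lower, while 3 of 7 had an unadjusted p under 0.05 and limma voom called 1. Libraries of the 2 genotypes did not overlap for 2 of 7 members ex vivo and for 2 of 7 after stimulation, where 21.5% and 30.8% of all tested genes did not. For stimulation this count was 4 of 7 in WT (47.5% of all tested genes) and 5 of 7 in cKO (53.5%). The stimulation comparisons of WT and cKO rest on separate libraries, whereas each shares its ex vivo or stimulated group with a genotype comparison. The rise in the share of Gm10800 went with stimulation too, and its part in these changes was not tested.

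**Figure D2:**
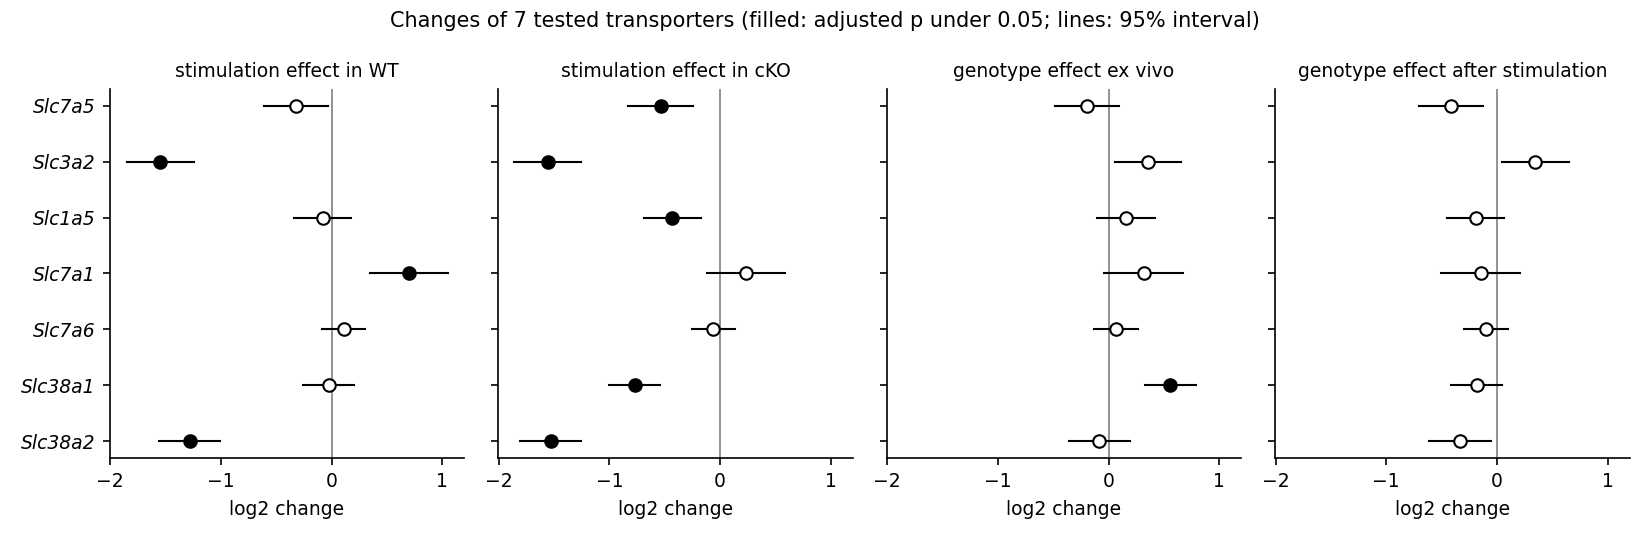
Log2 change on the scale of log2(scaled TPM + 1) (horizontal axis) of the 7 tested transporters (rows) in the 4 comparisons of 2 groups (panels), with 95% intervals from limma and filled points where the adjusted p was under 0.05. Slc3a2 and Slc38a2 lay at -1.28 or below in both stimulation panels, and Slc38a1 was the filled point of the ex vivo genotype panel.

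Ratios of 2 transporters within a library do not depend on how libraries are scaled, and each was tested by an exact permutation of libraries within strata, two-sided, with 400 arrangements (8 tests, adjusted together). The heavy chain Slc3a2 was present at 3.15, 3.53 and 3.59 transcripts per Slc7a5 transcript (lowest, median and highest library) in WT ex vivo and at 4.91, 5.07 and 5.15 in cKO ex vivo. After stimulation it was at 1.34, 1.44 and 1.58 in WT and at 2.16, 2.48 and 2.89 in cKO. The 4 groups did not overlap. The log2 ratio fell by 1.13 with stimulation, averaged over the genotypes, and was 0.67 higher in cKO, averaged over the conditions (0.56 ex vivo and 0.78 after stimulation). Both had an exact permutation p of 0.005, the smallest these arrangements can give, and an adjusted p of 0.00667. The genotype difference in this ratio kept its side of the threshold without each library in turn, at 0.62 to 0.72.

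The ratio of Slc38a2 to Slc38a1 was 5.71 ± 0.616 in WT and 3.62 ± 0.339 in cKO ex vivo, and 2.40 ± 0.489 and 2.14 ± 0.068 after stimulation (SD, n = 3). Its log2 value fell by 1.01 with stimulation (exact permutation adjusted p = 0.00667). The genotype effect averaged -0.40 (exact permutation adjusted p = 0.035) from -0.66 ex vivo and -0.15 after stimulation, where the libraries overlapped. Without WT stimulated replicate 2 it was -0.32 at an exact permutation adjusted p of 0.07, with the difference after stimulation turned to 0.013, and without cKO stimulated replicate 1 it was -0.39 at 0.05. Slc1a5 exceeded Slc7a5 in every library, by 1.29-fold in WT and 1.67-fold in cKO ex vivo, and by 1.53-fold and 1.80-fold after stimulation. The genotype effect on this log2 ratio was 0.30 (exact permutation adjusted p = 0.00667) and the stimulation effect 0.18 (adjusted p = 0.0343). The latter lost its call in 5 of 15 alternatives, namely without WT ex vivo replicate 1, cKO ex vivo replicate 1, WT stimulated replicate 1 or 3, or cKO stimulated replicate 2 (exact permutation adjusted p of 0.055 to 0.065).

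Among the 3 light chains that are members, Slc7a5 made up 67.9% ± 3.46 of the summed TPM of Slc7a5, Slc7a6 and Slc7a11 in WT ex vivo and 63.9% ± 0.884 in cKO ex vivo. After stimulation the share was 60.6% ± 1.73 in WT and 54.2% ± 4.33 in cKO (SD, n = 3). Libraries of the 2 genotypes did not overlap in either condition. The share fell by 8.45 percentage points with stimulation and differed by -5.21 points in cKO from WT, both with an exact permutation adjusted p of 0.00667. Slc7a5 enters 3 of the 4 ratios, so that these are not independent of each other. Slc7a10, a light chain that is not a member, was left out of the share. It averaged 6.03 scaled TPM in WT and 8.01 in cKO ex vivo, and 4.46 and 5.43 after stimulation, above Slc7a11 in each group.

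**Figure D3:**
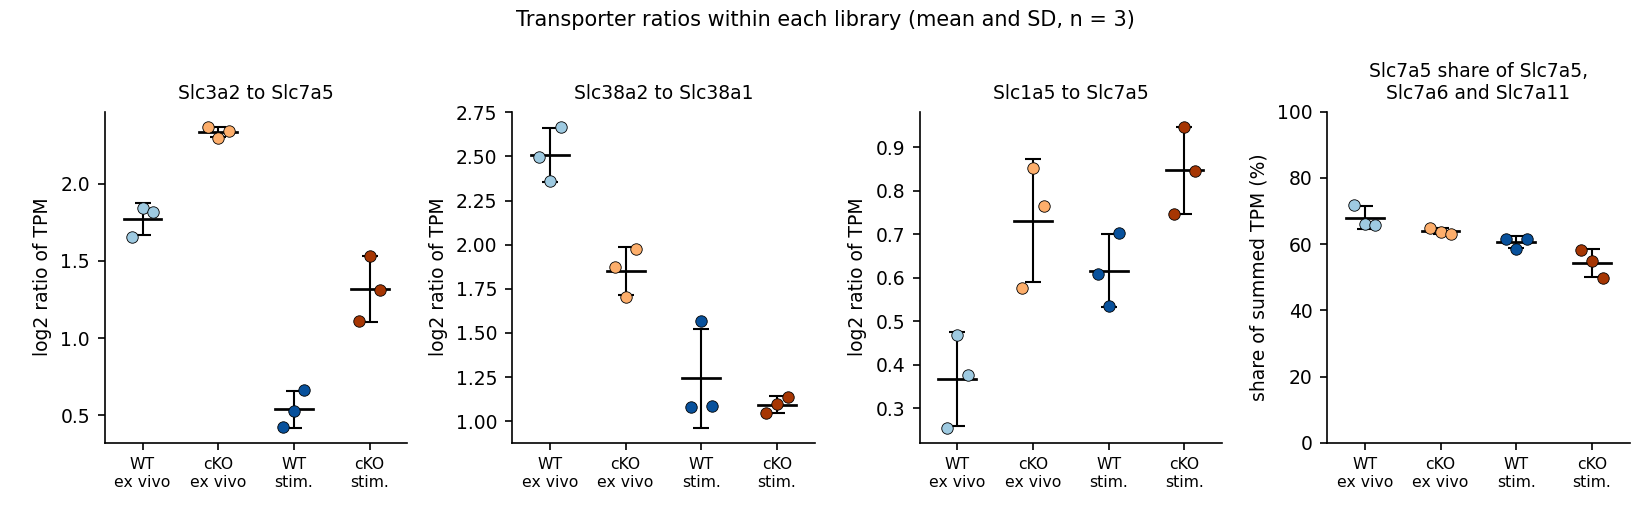
Log2 ratios of the TPM of 2 transporters and the percent share of Slc7a5 among 3 light chains (vertical axes, the share from 0 to 100) in each library (points) with the group mean and SD. Slc3a2 per Slc7a5 was higher in cKO than in WT under both conditions and lower after stimulation in both genotypes.

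Promoter sequences were given for 5 of the 8 members (Slc3a2, Slc7a1, Slc7a6, Slc7a11 and Slc38a2) in RefSeq for GRCm38.p6, another build than the mm9 of the expression table. In all, 4 short motifs were searched on both strands in 300 bases, 250 before and 50 after each start. They were CACGTG (the E-box of Myc and Max, found in 7.15% of 32851 promoters), TGATGNAA (core of the C/EBP-ATF response element, 3.97%), TGANTCA (AP-1, 7.81%) and TGGGAA (an Ikaros core with its flank, 25.6%). The motifs do not contain each other. The 250 bases before the start are shown for the pair that fell with stimulation, Slc3a2 and Slc38a2, for Slc7a1, which rose in WT, and for Slc7a11, with matches in capitals.
Slc3a2 (chr19:8713898-8714147, minus strand): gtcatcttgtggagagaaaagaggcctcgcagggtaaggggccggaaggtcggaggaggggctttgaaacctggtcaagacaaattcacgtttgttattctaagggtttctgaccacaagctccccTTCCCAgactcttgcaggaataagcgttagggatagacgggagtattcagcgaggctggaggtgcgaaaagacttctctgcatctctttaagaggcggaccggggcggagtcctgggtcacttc
Slc38a2 (chr15:96699729-96699978, minus strand): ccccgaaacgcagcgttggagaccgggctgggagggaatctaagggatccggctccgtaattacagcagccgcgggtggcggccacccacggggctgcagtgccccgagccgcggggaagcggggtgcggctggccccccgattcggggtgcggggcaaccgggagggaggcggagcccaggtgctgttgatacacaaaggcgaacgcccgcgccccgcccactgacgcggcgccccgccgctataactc
Slc7a1 (chr5:148399905-148400154, minus strand): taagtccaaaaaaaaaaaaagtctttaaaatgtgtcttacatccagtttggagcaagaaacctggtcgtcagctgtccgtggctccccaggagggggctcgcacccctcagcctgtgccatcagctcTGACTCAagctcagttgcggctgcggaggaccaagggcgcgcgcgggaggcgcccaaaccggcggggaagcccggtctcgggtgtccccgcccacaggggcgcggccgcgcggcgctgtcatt
Slc7a11 (chr3:50443614-50443863, minus strand): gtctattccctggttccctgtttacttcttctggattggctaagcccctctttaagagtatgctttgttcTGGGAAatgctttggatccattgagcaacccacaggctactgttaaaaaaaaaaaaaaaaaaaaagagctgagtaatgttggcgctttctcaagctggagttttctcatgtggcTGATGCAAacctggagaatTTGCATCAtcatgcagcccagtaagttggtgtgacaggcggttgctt
Slc3a2 held 1 match to TGGGAA on the minus strand, from base -124 relative to the start, and this promoter of Slc7a1 held TGACTCA from base -123. Slc7a11, which was near silent here, held TGATGCAA from base -66, its other-strand form TTGCATCA from base -47, and TGGGAA from base -180. None of the 4 motifs was found in the windows of Slc38a2 and Slc7a6 or in the other start of Slc7a1. The pair that fell together differed in base composition, with 53.6% G and C for Slc3a2 and 72.0% for Slc38a2 in the bases shown.

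Other transporters of the plasma membrane were mostly low, and 5 of 25 listed genes were tested. Among the genes of this and the following lists, some passed the filter of 5 TPM, set on unscaled TPM, only through groups where they were high. On that unscaled measure Slc43a1 averaged less than 5 TPM in both WT groups, and Gls2, Laptm4b and Trib3 in both ex vivo groups. The same held for Slc15a3, Pqlc2, Slc38a7 and Bcat1 in WT ex vivo, Slc7a10 in both stimulated groups and Bckdhb in cKO stimulated. In scaled TPM, Bckdhb averaged 4.82 in WT stimulated and 5.31 in cKO stimulated. For list genes called between genotypes, and for the less stable of those called with stimulation, "kept in" gives how many of 21 alternatives kept the call. Slc43a1, another leucine carrier, was higher in cKO both ex vivo, at 6.98 ± 0.482 against 2.85 ± 0.448 scaled TPM (log2 difference 1.06, adjusted p = 0.00382, kept in 21), and after stimulation, at 8.51 ± 1.34 against 3.71 ± 0.626 (1.01, adjusted p = 0.00352, kept in 18 and lost with unscaled TPM, the 1 TPM filter and no filter). Slc36a4, a carrier of proline and tryptophan, was higher in cKO ex vivo (0.60, adjusted p = 0.00329, kept in 19) and rose with stimulation in WT (0.33, adjusted p = 0.0128, kept in 15). Slc43a2, a further carrier of large neutral amino acids, and Slc6a6, the taurine carrier, were lower in cKO after stimulation (-0.48, adjusted p = 0.00871, kept in 19, and -0.40, adjusted p = 0.0417, kept in 8). Of 6 other partners of the heavy chains 1 was tested, Slc7a10, which fell in cKO with stimulation (log2 change -0.49). Of 10 listed lysosomal transporters, 8 were tested and 3 rose and 1 fell with stimulation in WT (1 and 0 with unscaled TPM or quantile normalization), where 12.7% of all tested genes rose and 19.3% fell. The histidine and peptide carrier Slc15a3 rose most (0.66, adjusted p = 0.0109) and was higher in cKO by 1.16 ex vivo and by 1.68 after stimulation (adjusted p = 0.00317 and 0.000256, each kept in 19). Pqlc2 (0.56, kept in 14) and Slc38a7 (0.37, kept in 7) also rose in WT, and Slc38a9, a lysosomal arginine sensor, fell (-0.31, adjusted p = 0.0292, kept in 13).

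In the response to amino acid shortage, 5 of 16 tested genes fell and 2 rose with stimulation in WT, and 7 fell and 3 rose in cKO. Over all tested genes 19.3% fell and 12.7% rose in WT and 26.5% and 17.3% in cKO. With a filter of 1 TPM 3 of these 16 fell and 0 rose in WT, and with unscaled TPM 7 fell and 0 rose in cKO. Atf4, the factor of this response, went from 461 ± 49.6 to 127 ± 3.72 scaled TPM in WT (log2 change -1.85, adjusted p = 1.07e-05) and from 286 ± 22.4 to 113 ± 23.6 in cKO (-1.36, adjusted p = 5.41e-05), and it was lower in cKO ex vivo (-0.68, adjusted p = 0.0233). Its partner Ddit3 fell by 1.89 in WT and by 1.37 in cKO and was lower in cKO ex vivo (-0.61, adjusted p = 0.034). The lower levels of Atf4 and Ddit3 in cKO ex vivo were each kept in 12 of 21 alternatives and lost with unscaled TPM, the 1 TPM filter, no filter and the replicate block, and without WT ex vivo replicate 1 or 3 or any cKO ex vivo library. Cebpb fell by 1.78 in WT and by 0.98 in cKO and was higher in stimulated cKO than in stimulated WT (0.68, adjusted p = 0.0161, kept in 16 and lost with unscaled TPM, the 1 TPM filter, no filter and without WT stimulated replicate 3 or cKO stimulated replicate 2), whereas Eif4ebp1 rose in both genotypes (0.66 and 0.60). Myc, named above as a control gene and an inducer of Slc7a5 in many cells, rose in both genotypes. The Slc7a5 changes were -0.32 in WT, which did not pass (adjusted p = 0.084 in limma), and -0.54 in cKO. A link between Myc and Slc7a5 was not tested.

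In the mTORC1 pathway and its amino acid sensors, 5 of 29 tested genes rose and 2 fell in WT, and 5 rose and 4 fell in cKO, beside calls for 32.0% and 43.8% of all tested genes. With quantile normalization 9 rose and 2 fell in WT and 11 and 4 in cKO, with a filter of 1 TPM 1 and 1 in WT and 1 and 8 in cKO, and with unscaled TPM 4 and 0 in WT and 2 and 4 in cKO. Gatsl2, whose product belongs to the arginine sensor of the pathway, went from 5.49 to 17.2 scaled TPM in WT (log2 change 1.49, adjusted p = 4.6e-06), and Gatsl3 and Akt1s1 rose by 0.67 and 0.65. Sesn1, a leucine-sensor relative, fell by 0.70 in WT and by 1.35 in cKO and was lower in stimulated cKO (-0.98, adjusted p = 0.000707, kept in 19). In the same comparison Gatsl2 was lower (-0.46, adjusted p = 0.0258, kept in 12) and the Rag GTPase gene Rragd higher (0.88, adjusted p = 0.00457, kept in 18), and Sesn2 was higher in cKO ex vivo (0.45, adjusted p = 0.0321, kept in 12). With unscaled TPM the calls of Gatsl2, Rragd and Sesn2 were lost, and with the 1 TPM filter all 4.

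Enzymes that use the imported amino acids moved with stimulation in both directions. Among 13 tested genes of glutamine and glutamate use, 1 rose and 5 fell in WT, where 12.7% of all tested genes rose and 19.3% fell. The counts were 1 and 1 with unscaled TPM and 3 and 4 with quantile normalization. Gls2 went up by 1.75 (adjusted p = 3.55e-05), while Glul, glutamine synthetase, fell by 0.89 and Gmps by 0.42. Among 14 tested genes of arginine, polyamine, methionine and branched-chain use, 1 rose and 8 fell in WT, with Amd1 (-1.18), Azin1 (-0.88), Bckdhb (-0.77) and Mat2a (-0.77) furthest down, and Odc1, the first enzyme of polyamine synthesis, was higher in cKO ex vivo (0.66, adjusted p = 0.0303, kept in 10 and lost with unscaled TPM, the 1 TPM filter, no filter, the replicate block and 7 of the 12 libraries left out). Their median log2 change was -0.43 in WT and -0.35 in cKO, beside 0.00 and -0.01 over all tested genes. With quantile normalization the median was -0.13 and -0.10, with 0 higher and 5 lower in WT, and with unscaled TPM it was -0.24 and -0.65, with 0 higher and 2 lower in WT. Of 23 cytosolic aminoacyl-tRNA synthetases and their cofactors, which charge tRNA with the imported amino acids, 3 rose and 4 fell in WT (32.0% of all tested genes were called; 5 rose and 1 fell with quantile normalization, 2 and 0 with unscaled TPM), led by Cars (0.86), Vars (-0.79), Aimp1 (-0.50, kept in 12) and Mars (0.44), and Wars was higher in stimulated cKO than in stimulated WT (0.45, adjusted p = 0.0168, kept in 15 and lost with unscaled TPM, the 1 TPM filter, no filter and without WT stimulated replicate 2 or cKO stimulated replicate 1 or 2). Of 8 genes of glutathione and cystine use 1 rose (Txn1, 0.44, kept in 14) and 1 fell (Gpx1, -0.53) in WT, and neither was called with unscaled TPM. Among 6 tested partners that control transporter traffic or turnover, Laptm4b and Arrdc1 rose (0.77, kept in 12, and 0.62, kept in 15) and Txnip and Arrdc3 fell (-0.90 and -0.67) in WT, against 1 higher and 0 lower with unscaled TPM.

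Across the 12 libraries, which share the 4 groups and their differences in depth, Slc3a2 and Slc38a2 varied together (Pearson r = 0.92 on the log2 scale, a description), and Slc7a1 ran against both (r = -0.60 and -0.64). The pair of heavy chain and main light chain, Slc3a2 and Slc7a5, had r = 0.63, and Slc1a5 went with Slc38a1 (r = 0.80) and Slc7a5 (r = 0.78). Among 4532 tested genes that reached 20 TPM in a group, those nearest to Slc38a2 were Hnrnph1, Rbm39 and Chd3 (r = 0.998, 0.998 and 0.997), and those nearest to Slc3a2 were Csrnp1, Thy1 and Jak3 (0.994, 0.991 and 0.987). Slc7a1 was nearest to Wnk1, Hivep1 and Nr4a3 (0.967, 0.961 and 0.951) and Slc7a5 to Pcif1, Tpp2 and Sfxn3 (0.961, 0.958 and 0.956). For Slc38a1 they were Tfip11, Cltc and Nktr (0.951, 0.948 and 0.946), for Slc1a5 Nup214, Hcfc1 and Prkab1 (0.943, 0.922 and 0.913), and for Slc7a6 Pank4, Srp68 and Lrrfip1 (0.829, 0.821 and 0.819).

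**Figure D4:**
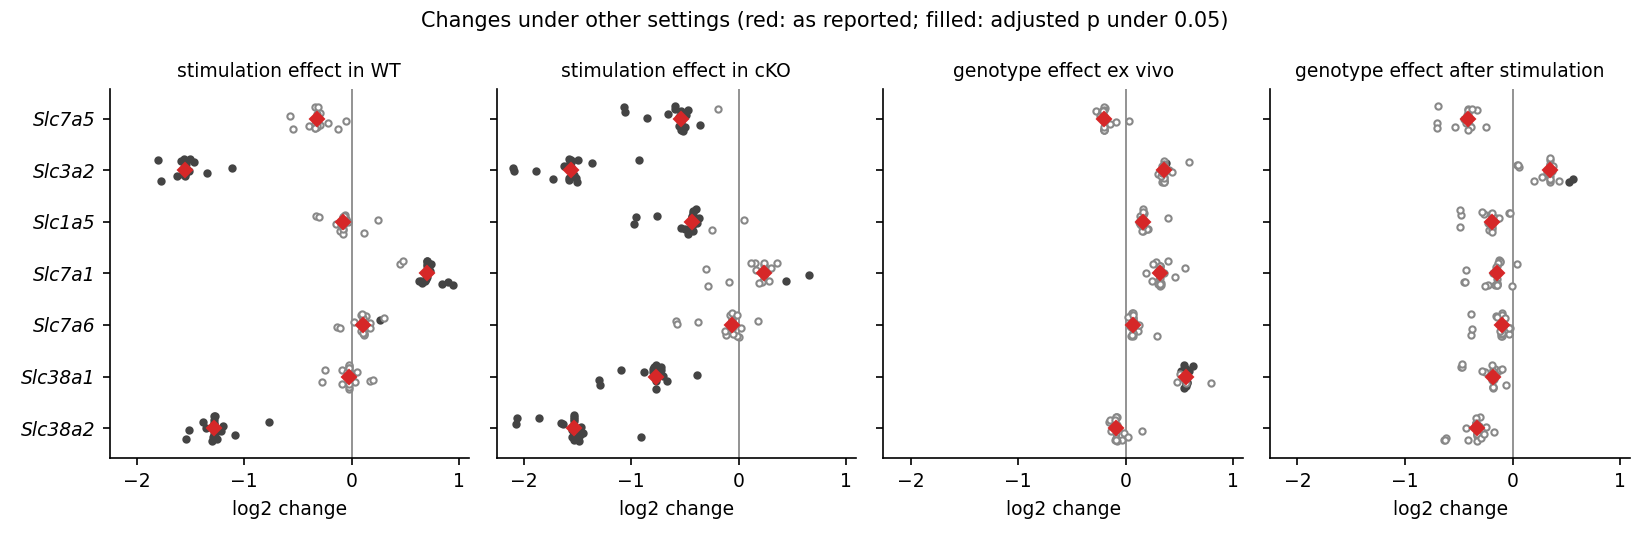
Log2 change (horizontal axis) of the 7 tested transporters (rows) in 4 comparisons (panels) as reported (red diamonds) and under 22 other settings of filter, scaling, test and libraries (points, filled where the adjusted p was under 0.05, spread vertically for display). The falls of Slc3a2 and Slc38a2 with stimulation were filled in all 22 in both genotypes, between -2.10 and -0.77.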

How the data were processed

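RNA-seq of 12 Treg libraries (4 groups of 3, from individual mice per the labels) was analysed. Per the labels and the study's methods, the authors depleted ribosomal RNA, made stranded libraries, aligned paired reads to mm9 with STAR 2.6.0c and counted them on exons with HTSeq 0.6.1. Their deposited table gives a signal in TPM for each gene, summing to 1000000 per library, and a log2 value that the authors took after adding the TPM of 1 read. This gave back whole reads for 99.9977% of 434664 values (tolerance 0.01). A further table deposited by the authors holds fold changes and p-values of their own comparisons and was not used. 

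Libraries were put on one scale by trimmed means of M-values (TMM, 30% of M and 5% of A trimmed), log2 was taken with a pseudocount of 1, and limma 3.58.1 in R 4.3.3 (eBayes with trend) was fitted to all 12 libraries with group as the only term, over the 13318 genes that averaged 5 TPM or more in some group. P-values were two-sided and Benjamini-Hochberg adjusted over these genes, with calls under 0.05. Fold changes are on the log2(scaled TPM + 1) scale, which understates changes of low genes. Ratios were compared by exact permutation within strata in Python 3.11.15. The procedure was tested on simulated data. For limma these had the same spread beyond counting error for every gene and no shift in the share of Gm10800. They could therefore not test how the scaling deals with that shift. Depth, 8208659 to 20247649 reads per library, gave each tested member at least 358 reads. Replicates differed by more than counting error (chi-square per degree of freedom 4.51 to 48.2). The members and lists were chosen with earlier results of these data known. Trib3 and Bcat1 were named only for the filter. Other named genes were the members, Ikzf1, 5 control genes, up to 4 called genes of largest change with stimulation in WT per list and list genes called between genotypes, and the 3 genes of highest correlation per member. One gene that this rule names is not reported here. Alternatives covered filter, pseudocount, scaling, test, replicate block and each library left out.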

Additional observations from a re-analysis of the deposited data

Results flagged for a closer look

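The stimulation effect on Slc38a1 differed between the genotypes by the interaction term, at a log2 value of -0.74 in cKO minus WT (adjusted p = 0.0447 in limma), from 48.2 to 27.9 scaled TPM in cKO and from 32.5 to 31.9 in WT. The adjusted p ranged from 0.00906 to 0.576 over 21 alternatives and stayed under the threshold in 6 of them.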

How the results depend on the processing

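Of 22 alternatives (21 for the interaction), all kept the falls of Slc3a2 and Slc38a2 with stimulation in both genotypes and the fall of Slc38a1 in cKO. The members called between genotypes ex vivo were 0 with the 1 TPM filter, without a filter and with unscaled TPM, 2 with quantile normalization and 0 to 1 without each library. Between stimulated groups they were 1 with quantile normalization and with limma voom and 0 to 1 without each library, and for the interaction 0 with the 1 TPM filter, without a filter, with unscaled TPM, with eBayes without trend and with the replicate block, and 0 to 1 without each library. The rise of Slc7a1 in WT lost its call with the 1 TPM filter (adjusted p = 0.449) and without a filter (0.428), and the fall of Slc7a5 in cKO with quantile normalization (0.181). Relative to the scaling used, the 1 TPM filter moved the median of the tested genes by -0.28 for genotype after stimulation, -0.24 for stimulation in WT, -0.49 in cKO and -0.26 for the interaction, and unscaled TPM by 0.22, -0.26, 0.18, -0.30 and -0.48 in the order of genotype ex vivo, genotype after stimulation, stimulation in WT, in cKO and interaction. The cause of these losses was not tested.

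Changes that turned direction were not called as reported, except Slc1a5 in cKO with stimulation (0.045 with quantile normalization). With unscaled TPM, Slc7a5 (0.034) and Slc38a2 (0.15) turned between genotypes ex vivo, Slc1a5 (0.11) and Slc38a1 (0.17) with stimulation in WT, and Slc7a1 (-0.089) with stimulation in cKO. With quantile normalization, Slc1a5 (0.25) and Slc38a1 (0.19) turned in WT, Slc7a6 (0.18) in cKO and Slc3a2 (0.18) in the interaction. Median of ratios scaling turned Slc38a1 in WT (0.0011) and Slc3a2 in the interaction (0.024). The 1 TPM filter and no filter turned Slc7a6 in WT (-0.14 and -0.11) and Slc7a1 in cKO (-0.30 and -0.29). Leaving out each library gave -0.16 to 0.022 for Slc38a2 between genotypes ex vivo, -0.25 to 0.042 for Slc7a1 between stimulated groups, -0.10 to 0.045 for Slc38a1 with stimulation in WT, -0.13 to 0.018 for Slc7a6 with stimulation in cKO and -0.16 to 0.18 for the Slc3a2 interaction.

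The ratio of Slc38a2 to Slc38a1 between genotypes (-0.40) had an adjusted p of 0.0938 by exact sign flips with the replicate block and gave -0.44 to -0.32 without each library. The stimulation effect on the ratio of Slc1a5 to Slc7a5 gave 0.14 to 0.21 without each library and lost its call in 5 of these fits. Deviations of same-numbered libraries correlated at -0.21 to 0.26, not above 0.1 in every pair of any comparison, so the numbers were not taken as pairs. Between WT and cKO ex vivo all 3 were positive (0.15, 0.26 and 0.078) and each library correlated best with its own number, a hint from the data and not from the design. With the replicate block the all-gene calls went from 704 to 516, 921 to 630, 4262 to 3946, 5836 to 5461 and 147 to 65 in the same order of comparisons. The block changed the call of no member other than the Slc38a1 interaction. All-gene calls were 57 ex vivo, 68 after stimulation, 1839 for stimulation in WT and 0 for the interaction with the 1 TPM filter, 273, 306, 1943 and 67 with unscaled TPM, and 1203, 1247, 4872 and 394 with limma voom. Leaving out each library gave 324 to 740 all-gene calls ex vivo (lowest without cKO ex vivo replicate 3), 397 to 1050 after stimulation (lowest without WT stimulated replicate 2) and 50 to 203 for the interaction (lowest without cKO ex vivo replicate 3). With unscaled TPM the calls split into 260 higher and 13 lower ex vivo (482 and 222 as reported), 69 and 237 after stimulation (439 and 482), 558 and 4116 for stimulation in cKO (2306 and 3530) and 6 and 61 for the interaction (60 and 87), and with the 1 TPM filter into 760 and 5146 for stimulation in cKO. Slc7a11 could be tested only with the lower filters and was not called, and the depth of 126 to 199 reads per library limits what can be said of it.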
